A study of Mus musculus with 2 samples.

Results

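*Kcnj8*, *Abcc9*, *Pdgfrb* and *Acta2* are the 4 mural genes followed here, chosen by name from the 500 genes of a probe panel for nervous tissue. Mural cells are the pericytes and smooth muscle cells that wrap blood vessels. *Kcnj8* encodes the pore subunit Kir6.1 and *Abcc9* the regulatory subunit SUR2 of an ATP-sensitive potassium channel, *Pdgfrb* encodes a receptor for platelet-derived growth factor, and *Acta2* encodes smooth muscle actin. In the brain the channel pair and the receptor mark pericytes as well as smooth muscle, whereas *Acta2* is typical of smooth muscle on arteries and arterioles and is low in pericytes of capillaries. Platelet-derived growth factor made by endothelial cells recruits *Pdgfrb* cells to growing vessels, and mesenchymal cells of the meninges and head also make the receptor. *Cldn5*, the gene of a tight junction protein of endothelial cells, served as the reference for vessels.

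The transcripts had been counted by MERFISH, which reads the barcodes of single RNA molecules in tissue over repeated rounds of imaging, in 1 coronal 10 µm section of a control head (*Sst-Cre/tdTomato*) and 1 of a *Dnmt1* knockout (KO) head (*Sst-Cre/tdTomato/Dnmt1 loxP2*), both at E16.5 and from whole heads that were flash-frozen unfixed. Both animals carried the *Sst*-driven Cre and the tdTomato reporter, and the deletion was directed to cells of the *Sst* lineage, a class of inhibitory neurons, whereas mural and endothelial cells belong to other lineages. *Dnmt1* is not on the panel, so its loss could not be checked here. With 1 section per genotype there was no replicate and no test, and genotype cannot be told apart from animal, section and run.

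The KO section was read more deeply. Of 108533 segmented control cells 55231 held at least 20 panel transcripts and were kept, with a median of 34 transcripts, against 101250 of 110004 KO cells with a median of 109. The sections shared 0 cell identifiers. Levels are given as counts per 1000000 panel transcripts of the cells concerned (CPM), and intervals are exact 95% intervals that cover counting error only. Each section was divided into an interior (over 50 µm inside the edge of the neural tissue, 8.997 mm² in the control section and 8.63 mm² for KO), a surface band within 50 µm of that edge, which holds the pia, and the tissue outside, where mesenchymal genes outnumber neural genes. The 50 blank barcodes, which code for no gene, had a median of 90.3 CPM in the control interior and 85.2 CPM in the KO interior and mark the level of false decoding. Because genes differ in length and in probe number, levels are compared between sections and places and not between genes. In pooled levels, fewer cells of a type and less RNA per cell cannot be told apart.

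Of the 15 other mural genes in the list used only *Cspg4* was on the panel, and *Cspg4* also marks oligodendrocyte precursors. Panel genes beyond this list were not used as mural markers. Of 9 genes of the channel and receptor pathways only *Kcnj8*, *Abcc9*, *Pdgfrb* and *Pdgfra*, the sister receptor of mesenchymal cells and oligodendrocyte precursors, were on the panel, so the partner subunits and the ligands were not measured.

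*Kcnj8* and *Abcc9* are neighbours in the genome. In the mouse build GRCm38.p6 *Kcnj8* lies at chr6:142564837-142571614 and *Abcc9* at chr6:142587862-142702766, with 16247 bases and 0 annotated genes between them, both on the minus strand. *Acta2* lies at chr19:34240336-34255585 on the minus strand. In smooth muscle the factor SRF binds CArG boxes, a pair of C and a pair of G around an A- and T-rich core, near the starts of contractile genes. The 250 bases before the RefSeq start used here for *Acta2* hold 2 CArG-like boxes, counted with at most 1 C or G in the core, and both are printed because *Acta2* and the channel pair differ in them (RefSeq, GRCm38.p6, minus strand, 5′ to 3′, the box in capitals).
*Acta2* box 1, chr19:34255438-34255467: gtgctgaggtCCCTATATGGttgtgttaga
*Acta2* box 2, chr19:34255388-34255417: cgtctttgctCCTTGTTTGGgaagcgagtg
Box 1 starts 84 bases and box 2 starts 34 bases upstream of that start, chr19:34255373, which lies 212 bases inside the annotated span of the gene, so both boxes lie within the span. The search pattern, though not each box, is its own reverse complement, so 1 search covers both strands. The same windows of *Kcnj8* and *Abcc9* held 0 boxes, while 8.59% of 32851 mouse promoters held at least 1 and 0.475% held at least 2. A match is a description of letters and says nothing of binding in these sections.

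**Figure D1:**
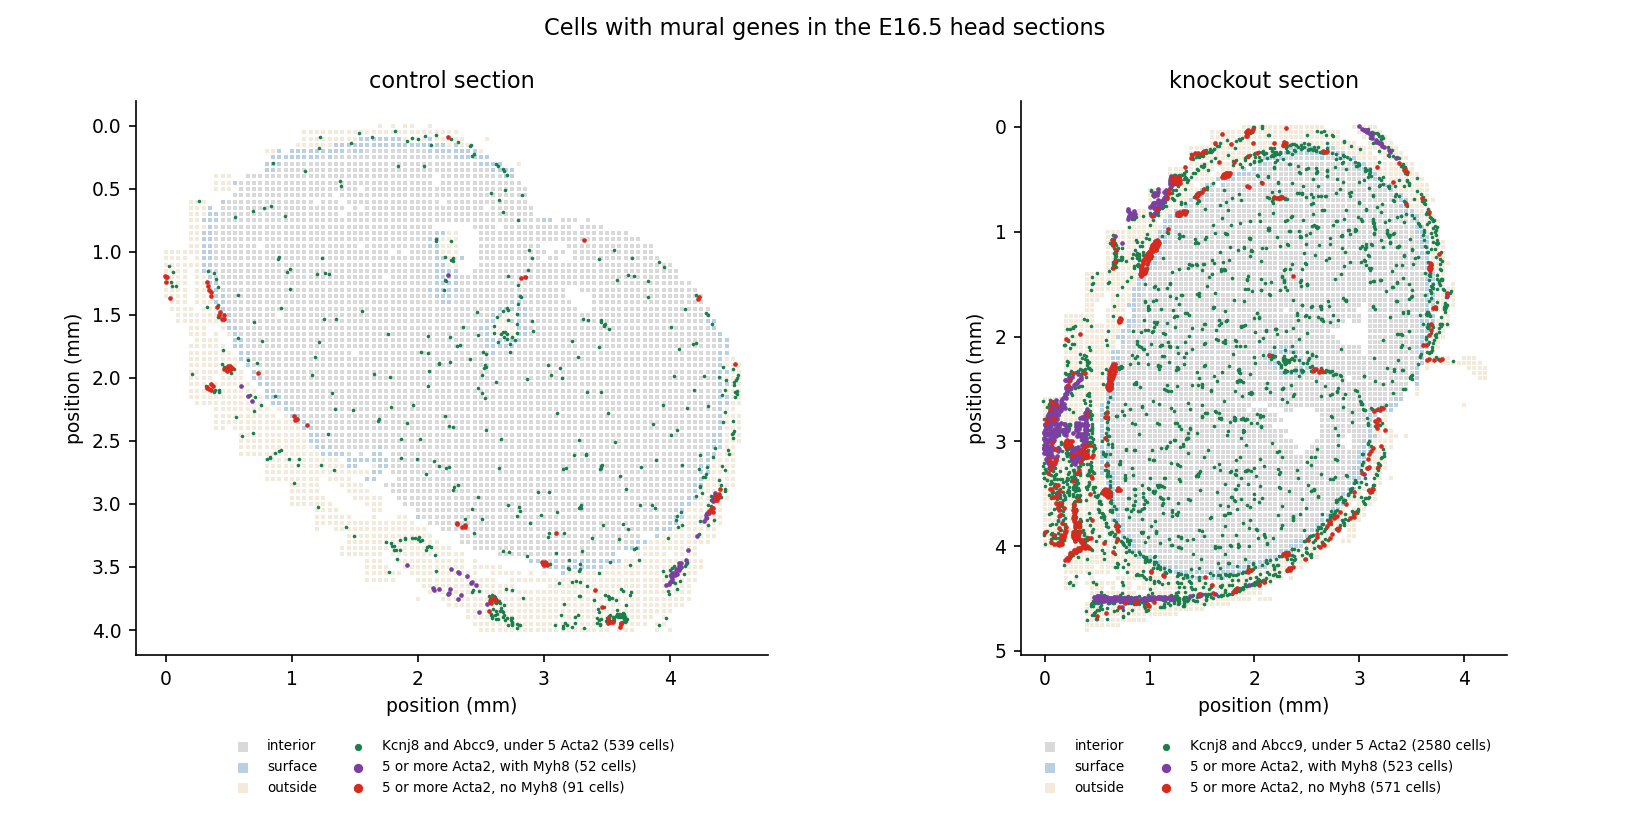
Position of cells in the control (left) and KO (right) section, both axes in mm. The background shows the territory of each 50 µm square (grey, interior; blue, surface; beige, outside), green points are cells with both *Kcnj8* and *Abcc9* and under 5 *Acta2* transcripts, and purple and red points are cells with at least 5 *Acta2* transcripts with and without *Myh8*. Of the green cells 36.9% in the control and 38.2% in KO lie in the interior, and 50.5% and 47.5% outside, while of the *Acta2*-high cells 7.69% and 2.01% lie in the interior.

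Within the brain the channel genes went opposite ways between the sections. In the interior *Kcnj8* was at 488 CPM in the control section and 279 CPM in the KO section, a log2 ratio of -0.81 (interval -0.97 to -0.65). *Abcc9* was at 644 CPM in the control against 965 CPM in the KO section, a log2 ratio of 0.58 (0.47 to 0.71). Neither gene moved over 2-fold, and 6.6% of the 500 panel genes did so in the interior. *Kcnj8* stood at percentile 5.8 and *Abcc9* at percentile 85.8 of all log2 ratios, whose median was 0.011. Each section was also split by position into 2 parts, which gives 4 pairings of a control with a KO part. Each part enters 2 pairings and the parts of a section share animal and run, so the pairings are not replicates. Interior *Kcnj8* was lower in the KO part in 4 of 4 pairings (log2 -1.02 to -0.51) and *Abcc9* was higher in 4 of 4 (0.54 to 0.67). The pallial and the subpallial interior gave -0.68 and -0.86 for *Kcnj8* and 0.58 and 0.59 for *Abcc9*. At the surface *Kcnj8* changed sign with the part of the control section used, 0.10 and 0.13 with part 1 against -0.61 and -0.58 with part 2.

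*Pdgfrb*, the receptor, was close to level in the interior, with 486 CPM in the control against 537 CPM in the KO section (log2 0.15, interval 0.0026 to 0.29), and the pairings ran from -0.14 to 0.73. *Acta2* was at 247 CPM in the control and 138 CPM in the KO interior, both below the highest blank barcode there (300 and 232 CPM). Its log2 ratio was -0.84 (-1.06 to -0.61). That difference rested on part 2 of the control section, at 306 CPM. Part 1 of the control held 139 CPM, beside 149 and 127 CPM in the parts of the KO section, and with it the log2 ratio was 0.11 and -0.12, both with intervals across 0. *Cldn5* was at 3153 and 2766 CPM (log2 -0.19), so per 100 *Cldn5* transcripts the interior held 15.5 *Kcnj8* transcripts in the control against 10.1 in the KO section, against 20.4 and 34.9 *Abcc9* transcripts. *Cspg4*, the 1 other gene of the mural list on the panel, passed the 2-fold limit there, at 960 and 476 CPM (log2 -1.01).

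All 4 genes were higher per 1000000 transcripts at the surface and outside than in the interior, in both sections. Outside the neural tissue the control section held 1750 CPM of *Kcnj8*, 2727 of *Abcc9*, 3861 of *Pdgfrb* and 4175 of *Acta2*, and the KO section held 1320, 4794, 3894 and 5843 CPM. The log2 ratios outside were -0.41 for *Kcnj8*, 0.81 for *Abcc9*, 0.012 for *Pdgfrb* and 0.49 for *Acta2*, beside a panel median of 0.37, and 13.2% of panel genes passed 2-fold there. These values moved with the part of the section used. Outside *Kcnj8* was -0.24 (-0.50 to 0.031) and -0.029 (-0.26 to 0.21) with part 1 of the control, both across 0, and -0.67 and -0.47 with part 2. Outside *Abcc9* ran from 0.21 to 1.32 over the pairings, and *Pdgfrb* was 0.27 and 0.25 with part 1 of the control and -0.077 and -0.094 with part 2. At the surface *Acta2* was at 1790 CPM in the control against 3794 CPM in the KO section (log2 1.08, 0.88 to 1.29). It was the only member past 2-fold in any of these territories, where 22% of 499 surface genes passed and the panel median was 0.48. Surface *Acta2* was higher in the KO part in 4 of 4 pairings (0.50 to 1.87). Over whole sections, where 5.8% of genes passed 2-fold, the log2 ratios were -0.71 for *Kcnj8*, 0.54 for *Abcc9*, -0.16 for *Pdgfrb* and 0.13 for *Acta2*, and those of *Pdgfrb* and *Acta2* changed sign under other settings. How much non-neural tissue each section holds differs too, with 26.0% of kept control transcripts and 19.6% of KO transcripts outside, and its part in the whole-section values was not tested.

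**Figure D2:**
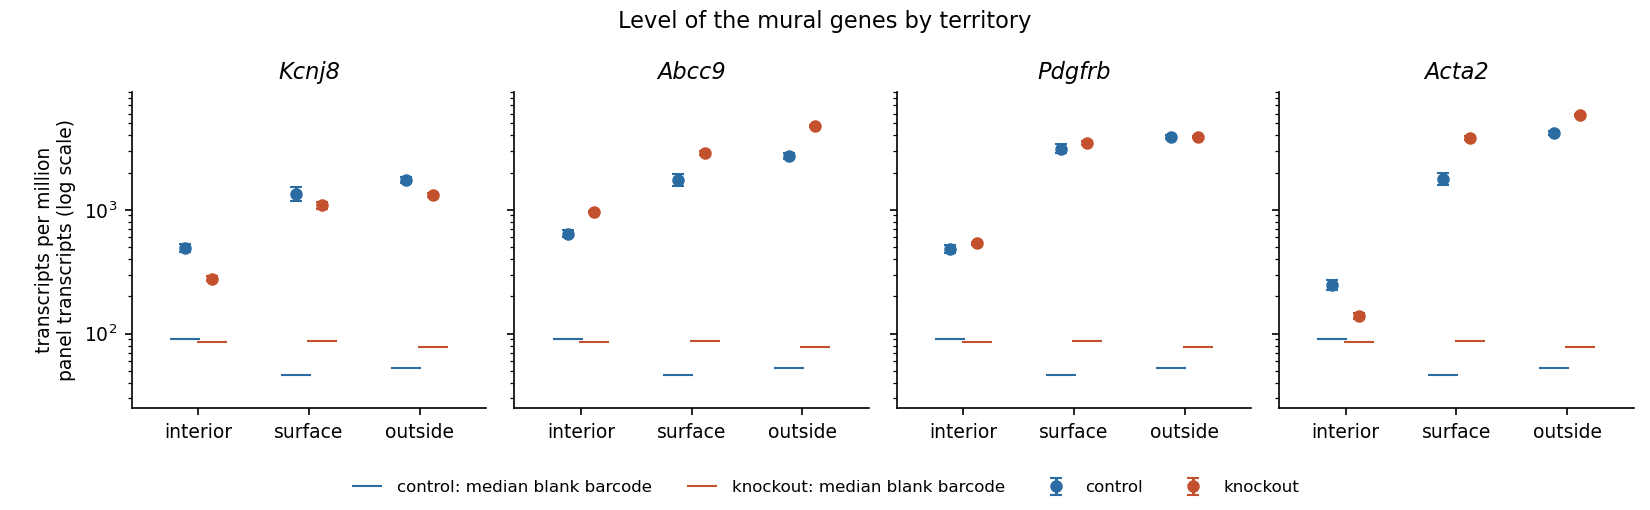
Level of each gene in the interior, at the surface and outside (x axis) as transcripts per 1000000 panel transcripts on a log scale (y axis), in the control (blue) and KO (orange) section. Points are the pooled count of 1 section with its exact 95% Poisson interval, and dashes are the median of the 50 blank barcodes. *Abcc9* is higher in the KO section in each territory, *Kcnj8* is lower in each although with part 1 of the control section its surface value changes sign and its intervals outside cross 0, and interior *Acta2* in the KO section (138 CPM) comes within 1.62 times the blank median.

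The make-up of the channel pair differed between the sections. For each *Kcnj8* transcript the whole control section held 1.44 *Abcc9* transcripts (1.36 to 1.52) and the KO section 3.42 (3.33 to 3.51). The ratio was 1.32, 1.29 and 1.56 in the control interior, surface and outside, and 3.47, 2.63 and 3.63 in the KO section. The parts of the control section gave 1.48 and 1.42 and those of the KO section 2.96 and 3.75, so the gap between sections was larger than that between parts of a section.

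The imaging plane moved with this ratio. Each section had been imaged in 7 planes, and in the control section the ratio ran from 1.85 in plane 0 to 0.82 in plane 6, while in the KO section it ran from 3.18 in plane 0 to 3.93 in plane 6. In plane 0, where both sections were richest, the KO section held 702 *Kcnj8* molecules per 1000000 against 823 in the control, a log2 ratio of -0.23, nearer to 0 than over all planes. The part of imaging depth and of decoding efficiency per gene in the *Kcnj8* and *Abcc9* levels was not tested further.

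*Kcnj8* and *Abcc9* were found in the same cells far above what depth alone gives. In the interior 200 of 584 control cells with *Kcnj8* also held *Abcc9*, 34.2% against 2.22% expected from cells of the same depth, a ratio of 15.4 (13.4 to 17.7). In the KO interior 996 of 1705 *Kcnj8* cells did, 58.4% against 6.83%, a ratio of 8.55 (8.03 to 9.10). Interior KO cells were deeper, with a median of 103 transcripts against 32. After every cell was thinned to 25 transcripts, the ratio over the whole section was 9.20 (7.97 to 10.6) in the control against 10.6 (9.55 to 11.8) in the KO section, with intervals that overlap.

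Among the 343 panel genes found in at least 500 cells of each section, *Abcc9* was the first partner of *Kcnj8* and *Kcnj8* the first of *Abcc9* over whole sections, where the ratio was 5.65 in the control against 4.25 in the KO section and the median gene had 0.75 with *Kcnj8*. The next partners of *Kcnj8* were *Flt1*, *Cldn5*, *Pdgfrb* and *Adgrf5*. Those of *Abcc9* were *Flt1*, *Cldn5*, *Aplnr* and *Adgrf5*. *Flt1* is a receptor for vascular endothelial growth factor, *Aplnr* the apelin receptor and *Adgrf5* an adhesion receptor, all typical of endothelium. The partners of *Pdgfrb* were *Kcnj8*, *Abcc9*, *Ccdc3*, *Flt1* and *Aplnr*. *Acta2* had another set, led by *Myh8*, a myosin heavy chain of developing skeletal muscle (ratio 11.1 in the control against 6.85 in the KO section), then *Arhgap36*, *Il33*, *Parm1* and, last of the 5, *Kcnj8* (2.92 and 2.85). In the interior alone *Acta2* with *Myh8* stood at 12.3 (14 cells, 6.70 to 20.6) in the control. In the KO interior it stood at 0.85 (14 cells, 0.47 to 1.43), an interval that includes 1.

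Within the interior the ratio of *Kcnj8* with *Pdgfrb* had an interval that overlaps that of *Kcnj8* with *Abcc9*, at 14.7 (12.4 to 17.3) in the control against 9.26 (8.62 to 9.94) in the KO section. *Abcc9* with *Pdgfrb* stood at 11.6 and 6.24. Among 467 panel genes found in at least 100 interior cells of each section, *Pdgfrb* ranked 1 for *Kcnj8* and *Abcc9* ranked 2. *Cspg4* ranked 3, ahead of *Cldn5* and *Flt1*, for *Kcnj8* (10.5 and 8.24) and for *Abcc9* (8.63 and 5.43). It also ranked 3 for *Pdgfrb* (8.61 and 6.40). *Kcnj8* with *Acta2* stood at 5.08 (21 cells, 3.15 to 7.77) in the control against 2.35 (80 cells, 1.87 to 2.93) in the KO section, below those with *Pdgfrb* beyond their intervals. Interior *Acta2* lay below the highest blank barcode in both sections, and the part of false decoding in its ratios was not tested. *Kcnj8*, *Abcc9* and *Pdgfrb* were also found with *Cldn5* itself, from 6.59 to 9.86 in the control and from 5.18 to 7.54 in the KO interior. A 10 µm section holds overlapping cell bodies, and the share of such cells in which a mural and an endothelial cell were outlined as 1 was not tested. Outside the neural tissue, where the genes are common, the ratios were far smaller, at 2.63 and 1.69 for *Kcnj8* with *Abcc9*. Those of *Pdgfrb* with *Acta2* were 1.19 and 0.97. The share of *Kcnj8* cells that also held *Abcc9* was not smaller there. For the control it was 288 of 822, beside 200 of 584 in the interior. For KO it was 1438 of 2280, beside 996 of 1705. *Abcc9* was in more of all cells outside, 11.1% (control) and 29.7% (KO), against 1.95% and 5.12% in the interior.

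**Figure D3:**
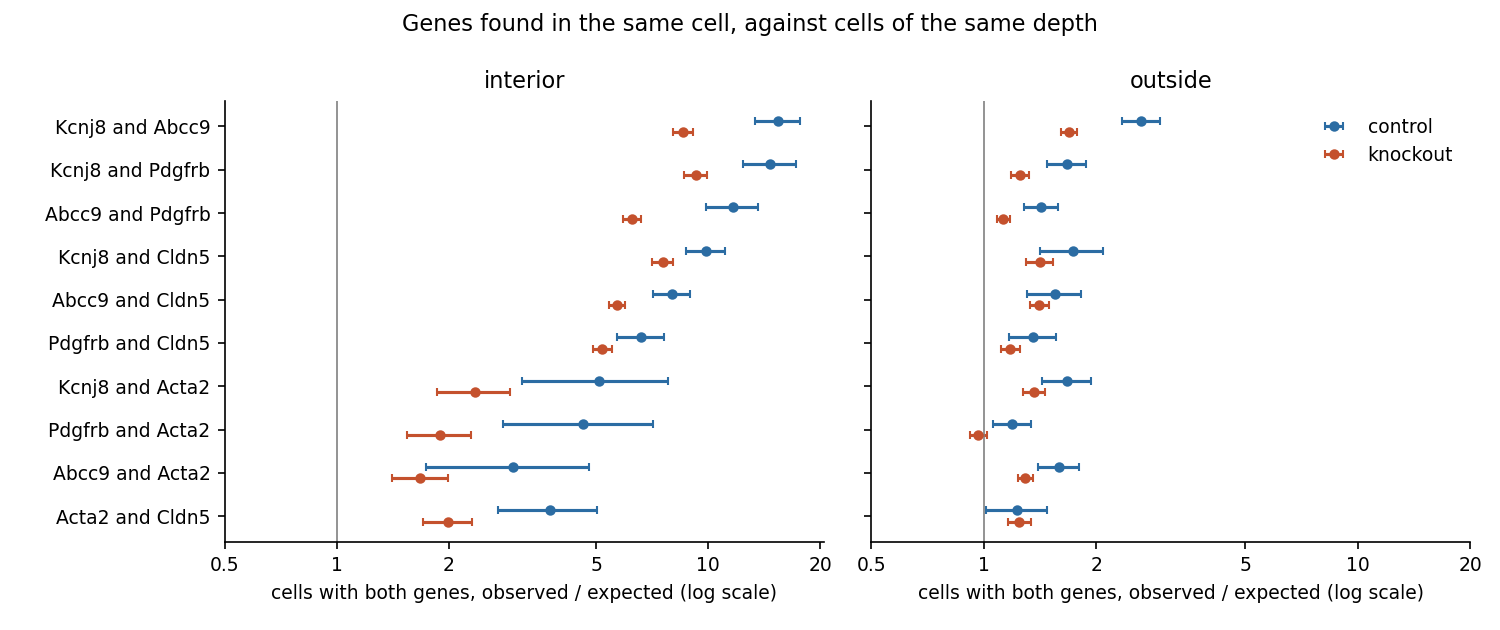
Cells holding both genes of a pair, observed over the number expected if the genes were independent among cells of like depth (x axis, log scale, 1 marked by a line), in the interior (left) and outside (right), for the control (blue) and KO (orange) section. Points carry exact 95% Poisson intervals of the observed number. *Kcnj8* with *Abcc9* and *Kcnj8* with *Pdgfrb* lead in the interior of both sections. Pairs with *Acta2*, whose interior level lies below the highest blank barcode, are lowest there. Outside, *Kcnj8* with *Acta2* (1.67 and 1.36) and *Abcc9* with *Acta2* (1.59 and 1.29) lie above *Abcc9* with *Pdgfrb* (1.43 and 1.13).

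The pairing was also seen without any outline of cells. Of 1127 single *Kcnj8* molecules in the control interior 27.6% had an *Abcc9* molecule within 5 µm, against 1.45% of a random sample of panel molecules, and of 3411 in the KO interior 73.1% did, against 5.97%. *Acta2* molecules lay that close to an *Abcc9* molecule in 9.42% and 20.4% of cases. In the control interior from 13.6% to 19.4% of the members' molecules lay outside any outlined cell, against 16.1% of panel molecules. The interval of *Kcnj8* (11.6 to 15.7) lay below that share and that of *Acta2* (16.2 to 22.9) above it. In the KO interior from 18.6% to 20.6% lay outside, against 16.7% of panel molecules, and the intervals of all 4 genes lay above that share.

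Sorted by marker counts, the channel pair had its highest interior level in endothelial-like cells and was low in neurons. Outside, control endothelial-like cells held 4686 CPM of *Kcnj8* (3061 to 6867), above the 1816 CPM of mesenchymal-like cells and the 1619 CPM of cells with no class. KO endothelial-like cells outside held 1205 CPM of *Kcnj8* (824 to 1701), within whose interval lay the 1346 CPM of mesenchymal-like cells and the 1456 CPM of cells with no class. A cell was put in a class when it held at least 3 transcripts of that class's markers and at least 2 times those of the next class, with no member among the markers. The classes are cuts along a count, and of the interior endothelial-like cells 100 of 573 held exactly 3 in the control section, as did 52 of 1312 with KO. Cells at that cut held more *Abcc9* than those above it, 13197 against 7673 CPM in the control and 25073 against 18647 CPM with KO. *Kcnj8* was at 6594 CPM in the control and 5616 CPM in the KO endothelial-like cells, and at 179 and 106 CPM in GABA-neuron-like cells. *Abcc9* was at 8449 and 18766 CPM in endothelial-like cells and at 347 and 354 CPM in GABA-neuron-like cells. Mesenchymal-like interior cells lay between, with 2693 and 2138 CPM of *Kcnj8* and 3741 and 8712 CPM of *Abcc9*. After thinning to 25 transcripts, 16.3% of control and 11.3% of KO endothelial-like cells held *Kcnj8*, beside 0.509% and 0.264% of GABA-neuron-like cells, which should lack it. For *Abcc9* the shares were 18.0% and 29.5% beside 0.840% and 0.848%. Before thinning, median depths were 36 and 107 transcripts in endothelial-like and 41 and 118 in GABA-neuron-like cells. No mural class was made, since of the mural list used the panel holds only *Cspg4*. In the interior 24452 control and 26289 KO cells fell in no class. Most control transcripts of the pair lay in those cells, 438 of 749 for *Kcnj8* and 512 of 987 for *Abcc9*, at 529.5 and 619 CPM, beside 160 and 205 transcripts in endothelial-like cells. In the KO interior the cells with no class held 925 of 2727 *Kcnj8* and 3236 of 9451 *Abcc9* transcripts, at 336 and 1176 CPM, beside 935 and 3124 in endothelial-like cells.

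*Pdgfrb* was highest in the few mesenchymal-like cells of the interior, 114 and 125 cells, at 7781 CPM (5811 to 10204) in the control and 10262 CPM (8862 to 11821) with KO. Endothelial-like cells held 4575 and 8013 CPM. *Pdgfrb* was also found in radial-glia-like cells and in the fewer microglia- and macrophage-like cells, 194 and 272 cells, which held 1218 CPM (584 to 2241) and 1051 CPM (714 to 1492) and were positive in 3.61% and 2.28% after thinning. Radial-glia-like cells, the neural stem cells that line the ventricle and their progeny, held 1340 CPM of *Pdgfrb* (1120 to 1590) in the control and 1534 CPM (1454 to 1617) in the KO interior. GABA-neuron-like cells held 169 and 163 CPM and glutamate-neuron-like cells 139 and 122 CPM. After thinning, 3.55% and 3.83% of radial-glia-like cells had *Pdgfrb*, beside 0.407% and 0.363% of GABA-neuron-like cells. *Kcnj8* stood at 71.6 and 133 CPM in radial-glia-like cells and *Acta2* at 61.4 and 55.1 CPM.

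**Figure D4:**
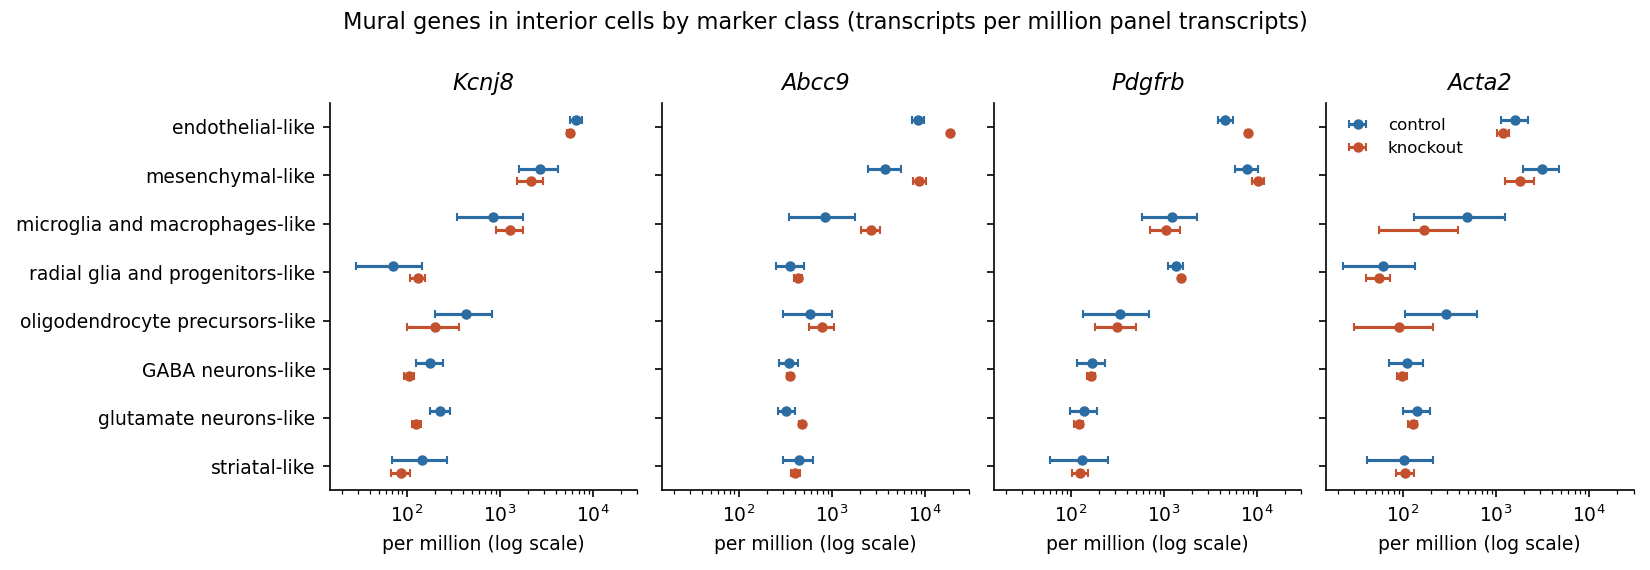
Level of each gene in interior cells of each marker class (y axis) as transcripts per 1000000 panel transcripts on a log scale (x axis), in the control (blue) and KO (orange) section, with exact 95% Poisson intervals. *Kcnj8* and *Abcc9* peak in endothelial-like cells, and *Pdgfrb* stands at 1340 and 1534 CPM in radial-glia-like cells, where *Kcnj8* and *Acta2* are at or under 133 CPM.

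*Acta2*-high cells, taken as cells with at least 5 *Acta2* transcripts, lay mostly outside the brain. The control section had 143 of them, 113 outside, 19 at the surface and 11 in the interior, and the KO section had 1094, with 900, 172 and 22. Since the sections differ in depth, the counts are not compared between them. The highest cell held 16 *Acta2* transcripts in the control against 163 in the KO section. In the interior *Acta2* came mostly as lone molecules, with 54.9% of the control and 74.4% of the KO transcripts in cells that held exactly 1.

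The *Acta2*-high cells outside fell into cells with and without *Myh8*, a division made after the values were seen. In the KO section 523 of 900 held *Myh8*, and 75.1% of these also held *Ttn*, the gene of the muscle protein titin, against 9.14% expected from depth. They held *Pdgfrb* in 19.1% of cases against 46.3% expected, *Cldn5* in 6.12% against 18.0% and *Kcnj8* in 14.7% against 19.3%. *Abcc9* went the other way, in 47.2% (42.9 to 51.6) against 39.5%. The 377 without *Myh8* held *Kcnj8* in 45.9% (40.8 to 51.1) against 18.7% expected, *Abcc9* in 68.7% against 38.1%, *Pdgfrb* in 65.5% against 44.7% and *Cldn5* in 47.7% against 17.4%. *Cspg4*, the other gene of the mural list on the panel, was not raised in them, in 46.7% (41.6 to 51.9) against 45.1%. The control section had 52 and 61 such cells in the same order. Those without *Myh8* held *Kcnj8* in 29.5% (18.5 to 42.6) against 9.04% and *Cldn5* in 21.3% against 7.41%, beside *Abcc9* in 37.7% against 13.5% and *Pdgfrb* in 44.3% against 20.4%. *Cspg4* was in 31.1% of them (19.9 to 44.3) against 29.1%, an interval that includes the expected share. Those with *Myh8* held *Kcnj8* in 5.77% (1.21 to 15.9) against 12.03%, *Abcc9* in 21.2% (11.1 to 34.7) against 18.6% and *Pdgfrb* in 19.2% (9.63 to 32.5) against 28.3%, and each of these intervals includes the expected share.

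At the surface of the KO section all 172 *Acta2*-high cells held 0 *Myh8*. The interval of that share reaches 2.12% and includes the 1.04% of all surface cells. Of the 172 cells 80.8% held *Cldn5* against 34.7% expected, 78.5% held *Pdgfrb* against 30.8% and 32.0% held *Kcnj8* against 12.7%. *Cspg4* was in 59.3% of them against 20.2%. Of the 19 control surface cells 52.6% held *Cldn5* against 22.1% expected and 36.8% held *Pdgfrb* against 12.6%, while 2 held *Kcnj8*, 10.5% (1.30 to 33.1) against 5.602%, an interval that includes the expected share. *Parm1*, a membrane glycoprotein, was the gene after *Acta2* itself with the highest fold over other surface cells in both sections, at 14.7 and 14.8. In the interior 18 of the 22 KO cells held *Kcnj8* or *Abcc9*, 81.8% (59.7 to 94.8) against 9.80% expected, and 4 of the 11 control cells did, 36.4% (10.9 to 69.2) against 4.14%.

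*Acta2*-high cells were a small share of the cells with both channel genes, and over each whole section a larger one than depth alone gives. In the KO interior 10 of 996 such cells were *Acta2*-high, 1.004% (0.482 to 1.84) against 0.0488% expected, and these 10 were among 22 *Acta2*-high cells in all. Over the whole KO section the share was 9.35% (8.30 to 10.5) against 2.01%, and outside it was 14.8% (13.01 to 16.8) against 8.27%. The control section held 17 of 556 over the whole section, 3.06% (1.79 to 4.85) against 0.600%, and 16 of these 17 lay outside, 5.56% of the 288 cells with both channel genes there (3.21 to 8.87) against 1.75%. It held 1 of 200 in the interior and 0 of 68 at the surface. The control interior share, 0.50% (0.0127 to 2.75), and the surface share, up to 5.28%, have intervals that include the expected 0.0478% and 0.551%. Of the other 986 KO interior cells 77.9% held *Cldn5* and 69.6% held *Pdgfrb*.

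Cells with the mural genes lay close to *Cldn5* cells in the interior, and cells with both channel genes had the shortest median distance. The median interior cell of the control was 53.9 µm from the nearest other cell with at least 2 *Cldn5* transcripts, cells with *Kcnj8* 25.5 µm (20.9 to 30.01), with *Abcc9* 31.1 µm (28.0 to 36.4), with *Pdgfrb* 39.0 µm (34.3 to 45.1) and with *Acta2* 33.7 µm (28.1 to 42.0). Cells with both channel genes were at 18.5 µm (15.1 to 24.2), an interval that overlaps that of cells with *Kcnj8*. *Kcnj8* cells lay nearer than *Pdgfrb* cells beyond these intervals, whereas *Acta2*, *Abcc9* and *Pdgfrb* cells followed each other with overlapping intervals.

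In the KO section, where 2824 interior cells passed the *Cldn5* minimum against 883 in the control, the median of all cells was 34.4 µm. *Kcnj8* cells were at 12.98 µm, *Abcc9* cells at 15.5 µm, *Pdgfrb* cells at 19.7 µm, *Acta2* cells at 31.6 µm and cells with both channel genes at 11.6 µm. With its transcripts thinned to the total of the control section, the KO interior had a median of 52.4 µm for all cells, 21.0 µm (18.5 to 24.1) for *Kcnj8*, 36.1 µm (31.7 to 39.5) for *Abcc9*, 40.9 µm (35.5 to 45.8) for *Pdgfrb*, 43.4 µm (36.4 to 50.9) for *Acta2* and 16.7 µm (14.4 to 22.3) for both channel genes. For the 4 genes and for both channel genes together these intervals overlap those of the control. Within the thinned KO section the intervals of *Kcnj8* cells and of cells with both channel genes overlap too.

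Cells with both channel genes lay nearer than other cells also when they held no *Cldn5* themselves. Among cells without *Cldn5* those with both channel genes were at 28.0 µm for the control and 13.3 µm with KO, against 54.8 and 35.5 µm for all cells without *Cldn5*. *Kcnj8* cells without *Cldn5* were at 32.6 and 20.9 µm and *Abcc9* cells at 43.5 and 26.1 µm. *Pdgfrb* cells without *Cldn5* were at 51.0 µm (46.3 to 60.7) in the control, an interval that includes the median of all cells without *Cldn5*, and at 31.4 µm (30.2 to 33.1) in the KO section. Cells with *Tbr1*, a gene of cortical neurons, were at 51.5 and 35.7 µm. Cells with *Dcn*, of mesenchymal cells, were at 31.0 µm (27.1 to 36.6) in the control, within the interval of cells with both channel genes (13.9 to 45.4), and at 34.1 µm in the KO section. *Acta2* cells without *Cldn5* were at 43.9 µm in the control and at 35.6 µm in the KO section, where all cells without *Cldn5* were at 35.5 µm.

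Single molecules, taken without any outline of cells, again put *Kcnj8* and *Abcc9* nearest and placed *Pdgfrb* before *Acta2*. The median distance to the nearest *Cldn5* molecule in the interior was 6.46 µm for *Kcnj8*, 7.96 µm for *Abcc9*, 9.53 µm for *Pdgfrb* and 12.9 µm for *Acta2* in the control, against 33.7 µm for a sample of panel molecules. In the KO section the medians were 2.71, 2.83, 4.70 and 16.9 µm against 25.0 µm. Interior *Acta2*, at 247 and 138 CPM, lay below the highest blank barcode of the interior (300 and 232 CPM). The part of false decoding in its distances, of cells or of molecules, was not tested. Outside the neural tissue the genes came within 0.66 to 0.94 times the median of panel molecules in both sections.

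All 4 genes were low in the brain away from vessels, and *Pdgfrb* was higher again at the largest distances. Interior cells that had at least 2 *Cldn5* transcripts or lay within 15 µm of such a cell were compared with cells over 30 µm away. In the control *Kcnj8* was 14.7 times higher near than far (11.7 to 18.4), *Abcc9* 11.5 times, *Pdgfrb* 8.28 times and *Acta2* 8.98 times. In the KO section the values were 24.7, 20.02, 8.83 and 3.13. The far levels of *Kcnj8* and *Acta2* lay within the range of the blank barcodes in both sections, that of KO *Kcnj8* under their median, so these ratios and ranks divide by a background level. Set against the blank median of far cells, near *Kcnj8* was 36.0 times higher in the control and 16.1 times in the KO section, and near *Acta2* 12.3 and 3.66 times. Of 452 genes in the control, those ranked ahead of the members were *Cldn5*, *Aplnr*, *Flt1* and *Dcn*, the latter a proteoglycan of mesenchymal cells. The rank of *Cldn5* is fixed by its use to define near and far cells. In the KO section *Kcnj8* ranked 2 of 500, *Abcc9* 5, *Pdgfrb* 8 and *Acta2* 20. The median gene stood at 0.77 and 0.93.

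The far level of *Kcnj8* was 218 CPM in the control, within the range of the 50 blank barcodes there (median 88.8, highest 314 CPM). In the KO section it was 57.1 CPM, under the blank median of 87.6 CPM, so its pooled level away from vessels could not be told from false decoding. Far *Acta2* was at 122 and 102 CPM, likewise near the blanks. Far *Abcc9* was at 327 and 237 CPM and far *Pdgfrb* at 296 and 240 CPM, beside highest blanks of 314 and 238 CPM. Of the 173 far control cells with *Kcnj8* and no *Cldn5*, 35 also held *Abcc9*, which is 19.1 times expectation, and 38 of 252 did in the KO section, 4.41 times expectation. Vessels whose *Cldn5* lay outside the section or below the minimum were not counted as vessels. In the shallower control section 883 interior cells passed that minimum, against 2824 in the KO section. The ratios of near to far and of far cells with both genes were not thinned to a common depth. They are therefore not compared between the sections.

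*Pdgfrb* followed another course. Pooled over far cells it was close to the highest blank barcode. It was at 212 CPM between 30 and 50 µm from *Cldn5* cells in the control, at 225 CPM between 50 and 80 µm and at 493 CPM (420 to 574) over 80 µm away, and in the KO section at 216, 251 and 551 CPM (453 to 665). *Kcnj8* did not follow it, with 214, 231 and 204 CPM in the control and 63.1, 46.2 and 65.2 CPM in the KO section.

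**Figure D5:**
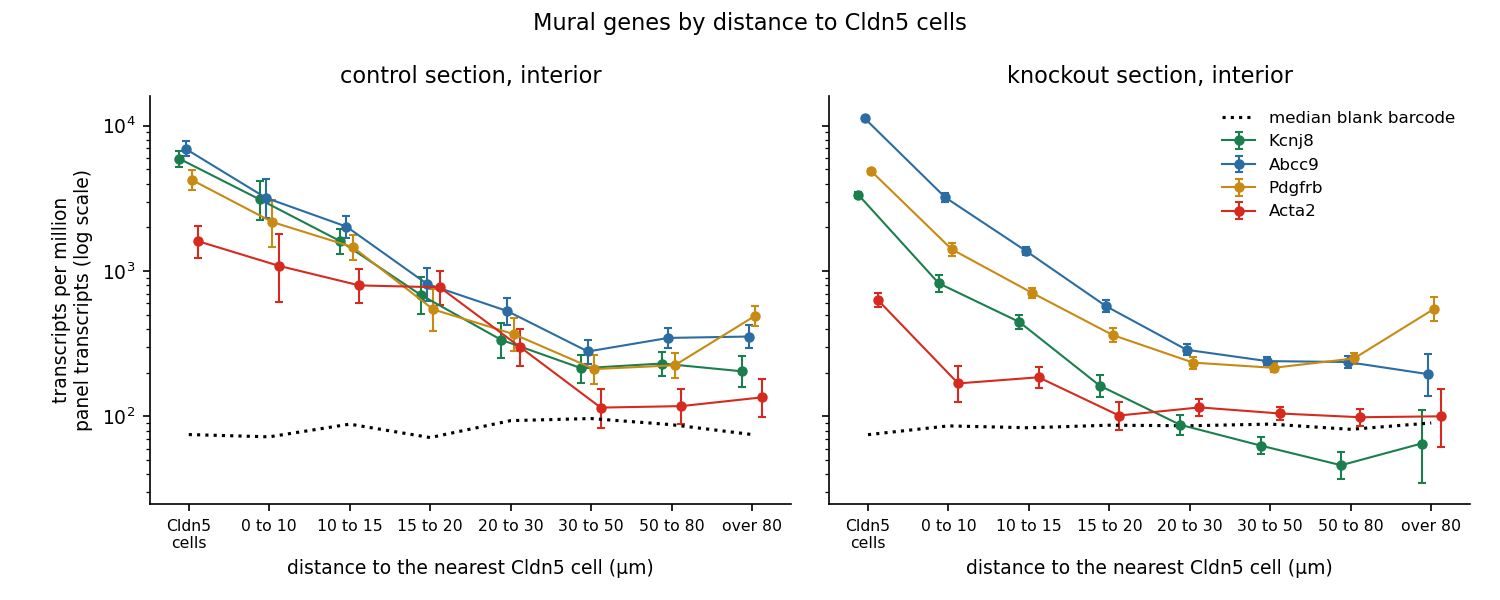
Level of each gene in interior cells by distance to the nearest cell with at least 2 *Cldn5* transcripts (x axis, µm, first group the *Cldn5* cells themselves) as transcripts per 1000000 panel transcripts on a log scale (y axis), with exact 95% Poisson intervals and the median of the 50 blank barcodes dotted. All 4 genes are highest in or next to *Cldn5* cells, *Pdgfrb* is higher over 80 µm away than between 50 and 80 µm in both sections, at 493 and 551 CPM, and *Kcnj8* in the KO section ends below the blank median.

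Radial-glia-like cells were the largest class among the far *Pdgfrb* cells of the KO section and made up under 50% of those of the control. The class cut and the far cut both rest on counts of transcripts, and interior KO cells were deeper (median 103 transcripts against 32). The part of depth in these shares was not tested, so they are not compared between the sections. Of the interior cells with *Pdgfrb*, no *Cldn5* and no *Cldn5* cell within 30 µm, 114 of 275 in the control (41.5%, 35.6 to 47.5) and 661 of 985 in the KO section (67.1%, 64.1 to 70.0) were radial-glia-like, a class that made up 7.61% and 10.1% of all such far cells. *Pdgfrb* stood at 1460 and 1727 CPM in far radial-glia-like cells, at 62.2 and 64.5 CPM in far GABA-neuron-like cells and at 56.1 and 31.1 CPM in far glutamate-neuron-like cells. The neuron values lay below the blank medians.

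Gene by gene the far *Pdgfrb* cells held *Aldh1l1*, a folate enzyme of astroglia, at 6.57 times expectation in the control and 6.67 times in the KO section. *Aldoc*, a glycolytic enzyme of glia, stood at 4.45 and 4.91, *Ednrb*, an endothelin receptor, at 4.10 and 5.16, and *Sox9*, a factor of glial progenitors, at 2.90 and 2.55. Neuronal genes were under expectation, *Gad1* at 0.28 and 0.40 and *Tbr1* at 0.36 and 0.32. *Eomes*, a factor of cortical intermediate progenitors, was at 0.67 (4 cells) and 1.56. The first far partner was the mural gene *Kcnj8*, at 17.7 in the control (27 cells) and 3.73 with KO (26 cells), and endothelial *Flt1* stood at 9.94 (11 cells) and 2.59 (37 cells). *Daam2* and *S1pr3* followed *Kcnj8* in rank, at 8.81 and 6.92 and at 7.90 and 6.22. The far level of *Pdgfrb* in radial-glia-like cells exceeded that of the same class within 15 µm in the KO section, at 1734 (1624 to 1849) against 1255 CPM (1053 to 1485). In the control the nearer class had 2 transcripts, too few for a comparison.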

How the data were processed

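MERFISH counts of 500 genes and 50 blank barcodes were analysed in 1 control and 1 KO section. The authors took decoding and cell outlines from the MERSCOPE instrument, with the Vizgen Pan Neuro panel. The deposited tables hold raw counts of transcripts per cell, without normalization, and a deposited volume signal per cell in cubic µm. The list of single molecules with position and imaging plane was also deposited. Aligner and genome build do not apply to decoded barcodes, and probe sequences were not used here. *Dnmt1* and the ligands of the receptor are not on the panel.

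Cells below 20 panel transcripts were dropped. The control kept 2320422 transcripts against 13387158 for KO, and levels are per 1000000 of these within the cells concerned (CPM), blanks left out. The neural tissue was drawn on a 25 µm grid, smoothed over 50 µm, where 16 neural genes outnumbered 8 mesenchymal genes. Parts of a section were a 2-means split of that tissue. Expected numbers of cells with 2 genes were summed over 20 depth strata. The cells with *Cldn5* used as vessels held at least 2 transcripts. Shares of cells were compared after thinning to 25 transcripts, and shallower cells were left out. With 1 section per group no test was run. Sums have exact Poisson and shares exact binomial (Clopper-Pearson) 95% intervals for counting error only, since molecules of a section share 1 run, and the interval of a ratio of sums is conservative. Named genes were the members, *Cldn5*, list genes and, for each member, the 5 genes with the highest ratio of observed to expected cells (geometric mean of both sections) among those in at least 500 cells of each section. *Ttn*, *Daam2*, *S1pr3* and the division of *Acta2*-high cells by *Myh8* were chosen after their values were seen. The members and lists were chosen with earlier results of these data known. Other cell minimums, molecules, planes, scalings, thresholds and parts of sections were tried as alternatives, as was dropping the 1% largest cells by volume. Count ratios, co-detection, distances between cells and thinning were tested on simulated data, where 10 of 10 known values were recovered. Some of these values, such as the transcripts per thinned cell, were fixed by construction. Territories, marker classes and distances of single molecules were not simulated. Python 3.11.15, numpy 2.4.6, pandas 2.3.3, SciPy 1.17.1 and matplotlib 3.10.9 were used. Gene positions and promoter letters came from RefSeq tables of GRCm38.p6.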

Additional observations from a re-analysis of the deposited data

Results flagged for a closer look

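*Acta2* went opposite ways in the territories under the same contrast. Its log2 ratio of KO over control was -0.84 in the interior, 1.08 at the surface and 0.49 outside, each with a counting interval clear of 0. The panel medians of the log2 ratio there were 0.011, 0.48 and 0.37. Both interior levels, 247 and 138 CPM, lay below the highest blank barcode of the interior, at 300 and 232 CPM. The difference between territories was not tested, since there is 1 section per genotype. The interior value rested on part 2 of the control section, and with part 1 it was 0.11 and -0.12. With part 1 of the KO section the value outside was 0.0047 and 0.068.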

How the results depend on the processing

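No paired analysis was possible because each group has 1 section, which also leaves no replicate to leave out. *Kcnj8* was lower and *Abcc9* higher in the KO section over whole sections under every alternative run, with the exception that the interval of *Abcc9* crossed 0 for part 2 of the control with part 1 of the KO section (0.060, -0.032 to 0.15), and with values from -1.0 to -0.23 and from 0.060 to 1.05 on the log2 scale. *Kcnj8* stood at -0.94 with a minimum of 50 transcripts per cell, -0.51 over all decoded molecules, -0.23 in plane 0 and -0.82 with size factors. *Abcc9* stood at 0.64 with a minimum of 10, 0.26 with 50, 0.66 with none, 0.69 over all molecules and 0.43 with size factors. Size factors moved the median of all genes by -0.11. For the pairings of control and KO parts (1 with 1, 1 with 2, 2 with 1, 2 with 2) the values that moved were -0.56, -0.29 and -1.0 for *Kcnj8* and 0.44, 1.05, 0.060 and 0.67 for *Abcc9*. *Pdgfrb* changed sign with no minimum (0.014), over all molecules (0.061), in plane 0 (0.079) and with part 1 of the control (0.0073 and 0.33). It stood at -0.025 with a minimum of 10, -0.64 with 50, -0.27 with size factors and -0.50 for part 2 with part 1. *Acta2* changed sign with a minimum of 50 (-0.11) and with part 1 of the KO section (-0.44 and -0.47). It stood at 0.21 with a minimum of 10, 0.23 with none, 0.022 with size factors, and 0.52 and 0.49 with part 2 of the KO section. The cause was not tested.

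*Kcnj8* and *Abcc9* stayed above expectation in the same cell throughout, at 17.1 and 9.97 (control and KO) with at least 2 transcripts of each, 9.20 and 10.6 when thinned, 14.3 and 8.22 in neural tissue, 4.04 and 2.59 with territory in the expectation, 4.27 in the control with a minimum of 50 and 4.71 in the KO section without *Cldn5*. *Acta2*-high cells held *Kcnj8* or *Abcc9* in 44.0% and 68.5% with at least 10 *Acta2* transcripts, in 70.6% in KO neural tissue and, added after seeing the data, in 67.6% of KO cells without *Myh8*, against 35.0% and 59.7% in the main setting. The distance of cells with both channel genes over that of all cells, 0.479 and 0.459, became 0.400 and 0.505 with at least 1 *Cldn5* transcript, 0.688 and 0.482 with 3, 0.314 and 0.338 in neural tissue, 0.410 and 0.422 with at least 2 member transcripts, 0.409 and 0.277 for molecules and 0.538 for the thinned KO section. The control *Acta2* ratio turned to 1.05 with at least 3 *Cldn5* transcripts. The log2 of far over near, -1.93 and -2.38 for the sum of the genes, became -2.19 and -2.90 for 50 against 10 µm, -2.20 and -2.43 with 1 *Cldn5* transcript, -3.50 and -3.78 in neural tissue and -2.22 thinned. In the interior 11 control cells and 22 KO cells were *Acta2*-high, which limits what can be said of them.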
